A study of Homo sapiens with 6 samples.

Results

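The genes described here encode the ephrins and their EPH receptors, and the semaphorins with their plexin and neuropilin receptors. They were chosen by symbol from the table of 28395 genes, and 53 rows matched, namely 14 EPH receptors, 8 ephrins, 20 semaphorins, 9 plexins and 2 neuropilins. Expression was measured by RNA-seq in 6 libraries of HCC827, an established human lung adenocarcinoma cell line with an activating deletion in EGFR, which both groups carry. Of these, 3 libraries came from cells given the vehicle DMSO and 3 from cells given 1 μM erlotinib, an inhibitor of the EGFR kinase, all for 24 h. The libraries held between 20760204 and 24641819 reads on genes. HCC827 is a single cell line tested here at 1 dose and 1 time, and the labels do not say whether the libraries came from separate cultures, so the p-values measure the spread between these libraries, which may be technical. By the paper's statistics section, experiments other than those on animals were independently repeated at least 3 times. That section does not name the RNA-seq libraries. In the table the erlotinib libraries are numbered 4 to 6, and values are listed in the order of the table throughout.

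Ephrins are ligands held at the cell surface, A-type by a lipid anchor and B-type by a transmembrane segment, and they bind EPH receptor tyrosine kinases on a neighboring cell. Signals can run into both cells, and in epithelia they set boundaries, adhesion and cell spreading. Semaphorins are secreted or membrane-bound ligands whose main receptors are the plexins, which act on small GTPases, and class 3 semaphorins mostly need a neuropilin to bind a plexin. These families were first studied as guides of growing axons and are also expressed in lung epithelium and in carcinomas.

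More guidance genes rose than fell under erlotinib. Signal denotes the reads of a gene divided by the size factor of its library, and the 42 guidance genes whose mean signal reached 10 were tested with limma on log2(signal + 1). SE denotes the standard error of a log2 fold change, and values given with no other unit are signal. With p-values adjusted over all 14215 tested genes (Benjamini-Hochberg) and a threshold of 0.05, 25 were higher and 6 lower under erlotinib, and 11 were neither. Over all tested genes, 70.7% passed this threshold, with 35.3% higher and 35.4% lower, so that the 59.5% of guidance genes that rose lay above the background and the 14.3% that fell below it. Their median log2 fold change was 0.59, against 0.02 over all tested genes. Changes of at least 1 log2 unit were found for 16 genes that rose and 4 that fell, against a background of 17.0% and 10.8% (27.8% in either direction). The libraries of the groups did not overlap for 24 genes in the upward and 6 in the downward direction, where the background was 36.7% and 36.9% (73.6% in either direction). Of the 42 guidance genes tested, only EPHA7 had a mean below 10 in one of the groups, and passed the minimum through its erlotinib libraries.

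**Figure D1:**
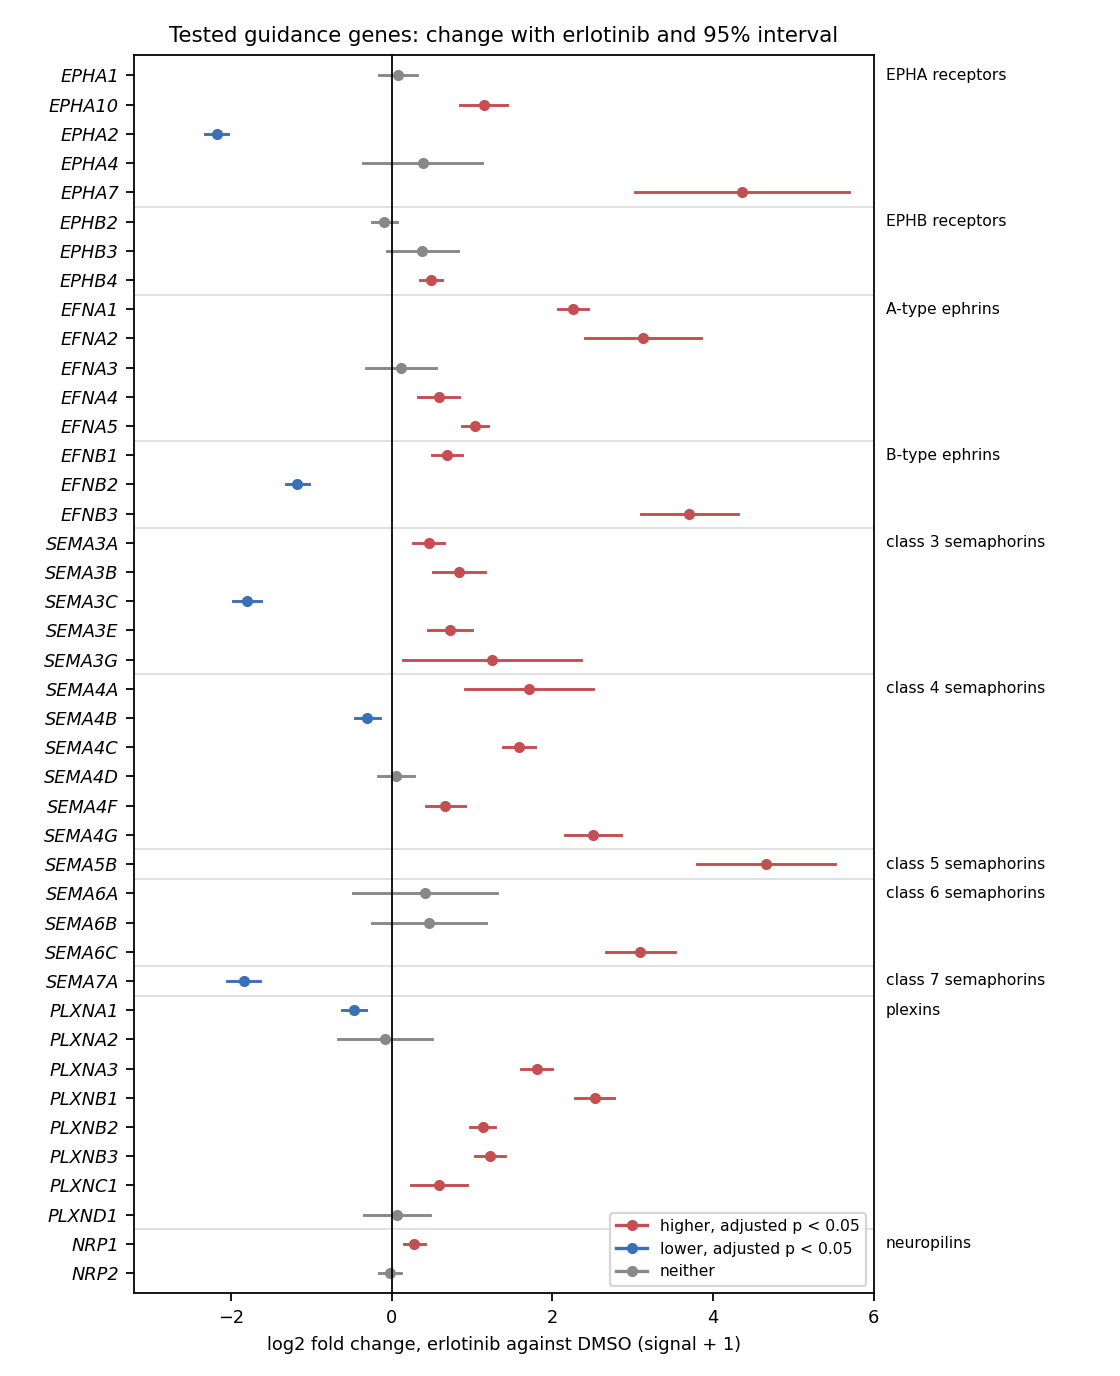
Log2 fold change (x axis, erlotinib against DMSO, on log2(signal + 1)) of the 42 tested guidance genes, ordered by class, with 95% intervals from limma and 3 libraries per group. The 6 genes that fell are EPHA2, EFNB2, SEMA3C, SEMA4B, SEMA7A and PLXNA1, and the widest intervals belong to genes with few reads, such as EPHA7 and SEMA3G.

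The remaining 11 genes were not tested. EPHA3, EPHA5, EPHA6, EPHB6, SEMA3D, SEMA6D and PLXNA4 had 0 reads in all 6 libraries, which allows up to 3 reads of each among the 131055392 reads, a limit that covers counting error only. For EPHB6 a 0 cannot be read as no expression, because 100% of its transcript also lies on an alternate contig of GRCh38, and only uniquely mapped reads were counted. Whether the reference that the authors used held alternate contigs is not given in the sources used here. EPHA8 had 5 reads in 1 erlotinib library and 0 elsewhere, and EPHB1 had 2 reads in each of 2 erlotinib libraries. SEMA5A had 2, 3 and 2 reads in the erlotinib libraries and 0 under DMSO. SEMA3F had 6, 6 and 13 reads under DMSO and 4 in each erlotinib library. At this depth no difference could be read for these genes.

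The order of the genes by level changed under erlotinib. Levels between genes are compared as signal per kb of the canonical transcript, which depends on the transcript chosen. Under DMSO, EPHA2 stood first with 1463 ± 62.6 (SD, n = 3), followed by NRP1 with 1389 ± 73.3, whose libraries overlapped those of EPHA2, and by SEMA4B with 1084 per kb. EFNB2, EPHB4 and PLXNB2 came next with 716, 691 and 678 per kb and overlapped each other. Under erlotinib, NRP1 stood first with 1695, 1685 and 1682 per kb, above every library of PLXNB2 (1484 ± 36.8) and EFNA1 (1472 ± 71.3), which overlapped each other. EPHB4 followed (969 per kb), and EPHA2 was 11th by its mean with 324 ± 12.5 per kb, where its libraries overlapped those of EFNA4, EFNB2 and PLXNA1.

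Of the EPH receptors, EPHA2 carried the largest fall. EPHA2 (Entrez gene 1969, chromosome 1, 16124337 to 16156069 of GRCh38, minus strand) is a receptor for A-type ephrins that is abundant in many carcinomas. Its signal was 5561, 5717 and 6045 in the DMSO libraries and 1268, 1331 and 1233 in the erlotinib libraries. The groups lay far apart and the libraries within each were close, with 5774 ± 247 under DMSO and 1277 ± 49.5 under erlotinib (SD, n = 3 each). The mean was 4.52-fold lower, a log2 fold change of -2.18 (SE 0.07, limma adjusted p = 2.5e-16). Of the summed level of all EPHA receptors per kb, EPHA2 made up 90.4% ± 0.631 under DMSO and 59.3% ± 2.38 under erlotinib.

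The other EPHA receptors did not follow EPHA2. EPHA10, a receptor regarded as lacking kinase activity, measured 253, 190.4 and 241 under DMSO and 589, 468 and 459.6 under erlotinib. The lowest erlotinib library was thus well above the highest DMSO library, and EPHA10 rose by 1.15 on the log2 scale (SE 0.14, limma adjusted p = 2.6e-07). EPHA7, a receptor known mainly from neural tissue, had 2, 8 and 0 reads under DMSO and 77, 61 and 57 under erlotinib. Every erlotinib library was above every DMSO library, with a log2 fold change of 4.36 (SE 0.64, limma adjusted p = 3.9e-06) that was 2.47 with a pseudocount of 10 and 5.66 with one of 0.1. Its DMSO mean of 3.23 was below 10, and EPHA7 passed the minimum only through the erlotinib libraries, where it was high. The call thus rests partly on that minimum. Even under erlotinib the level of EPHA7 was low, at 9.30 per kb, against 324 for EPHA2. EPHA1 was at 361 ± 16.6 under DMSO and 381 ± 14.4 under erlotinib (SD, n = 3 each), with a 95% interval of the log2 fold change from -0.16 to 0.32. EPHA4 had a mean signal of only 27.0 and 36.2, and its interval ran from -0.35 to 1.13.

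Among EPHB receptors, EPHB4, which binds ephrin-B2, was the most abundant per kb. Its signal was 3032, 2902 and 3087 under DMSO and 4129, 4310.3 and 4216 under erlotinib. The groups did not overlap, and EPHB4 rose by 0.49 on the log2 scale (SE 0.06, limma adjusted p = 1.0e-06). EPHB4 (chromosome 7, 100802565 to 100827523) overlaps SLC12A9, whose mean signal was 1319 under DMSO and 1921 under erlotinib, and the part of the overlap in the values of EPHB4 was not tested. EPHB2 was at 3259.5 ± 329 and 3050.4 ± 106 (SD, n = 3 each), and the 95% interval of its log2 fold change ran from -0.25 to 0.07. Without DMSO replicate 2 it passed the threshold as lower (-0.149), and scaled to the total its log2 fold change was 0.088. EPHB3 was at 86.5 ± 14.5 and 113 ± 19.6, with an interval from -0.06 to 0.83, and passed as higher when scaled to the total (0.561). Summed over all EPH receptors, the level per kb was 2625 ± 78.2 under DMSO and 1819 ± 29.2 under erlotinib (SD, n = 3 each).

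Of the 5 A-type ephrins, all tested, 4 were higher and EFNA3 was neither, where 35.3% of all tested genes were higher and 35.4% lower. EFNA1 (Entrez gene 1942, chromosome 1, 155127876 to 155134899, plus strand) encodes ephrin-A1, a ligand of EPHA2. Its signal was 427, 519 and 490.2 under DMSO and 2158, 2363 and 2334 under erlotinib. Each erlotinib library was above 4 times the highest DMSO library, and the log2 fold change was 2.26 (SE 0.09, limma adjusted p = 7.9e-15). Per kb, the ratio of EFNA1 to EPHA2 was 0.195, 0.231 and 0.206 under DMSO and 4.33, 4.52 and 4.81 under erlotinib. Ligand transcripts were thus the scarcer of the pair in every DMSO library and the more abundant in every erlotinib library, a 21.6-fold change of the ratio. An exact permutation test over libraries (two-sided, n = 3 each) gave p = 0.1, the smallest that this design allows, and so did each of the 7 ratios computed (adjusted p = 0.1).

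The windows of 250 bases before the annotated starts of EPHA2 and EFNA1 are shown because this receptor and its ligand changed in opposite directions. The window of PLXNB3, which rose, stands beside them since it holds the same letters as that of EPHA2. They are taken from RefSeq (GRCh38.p14) and written 5′ to 3′ on the strand of the gene, with matches to GGAATG or its reverse complement CATTCC, the letters of the TEAD motif, in capitals.
EPHA2 promoter, chr1:16156070-16156319, minus strand: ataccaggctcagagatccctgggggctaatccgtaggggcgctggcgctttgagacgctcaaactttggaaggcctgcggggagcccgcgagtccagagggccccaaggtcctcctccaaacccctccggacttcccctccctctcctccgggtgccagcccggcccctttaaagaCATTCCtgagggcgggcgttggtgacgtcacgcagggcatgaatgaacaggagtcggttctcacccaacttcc
EFNA1 promoter, chr1:155127626-155127875, plus strand: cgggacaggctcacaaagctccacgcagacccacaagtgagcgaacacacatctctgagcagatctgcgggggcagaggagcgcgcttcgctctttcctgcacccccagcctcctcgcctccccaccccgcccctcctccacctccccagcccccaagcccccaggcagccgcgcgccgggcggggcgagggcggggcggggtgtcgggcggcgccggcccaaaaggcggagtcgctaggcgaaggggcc
PLXNB3 promoter, chrX:153763999-153764248, plus strand: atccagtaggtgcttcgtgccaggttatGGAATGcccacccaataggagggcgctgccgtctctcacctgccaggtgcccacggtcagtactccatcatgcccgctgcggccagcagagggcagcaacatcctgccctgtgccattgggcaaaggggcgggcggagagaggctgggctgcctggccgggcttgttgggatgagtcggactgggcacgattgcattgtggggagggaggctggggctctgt

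Windows were available for 47 of the 53 genes, 74 in all because a gene can have several starts. GGAATG was found on either strand in 7 of them, those of EPHA2, PLXNB1, PLXNB3, SEMA3B, SEMA3F and SEMA4A, and in 11.9% of the 35116 windows of all genes. These genes include EPHA2, which fell, SEMA3F, which was not tested, and 4 that rose, and the match is a description of the letters only. The AP-1 letters TGANTCA were found in 1 window, of PLXNC1, against 6.57% of all windows. The FOXO letters GTAAACA were found in 1 window, of SEMA4B (2.98% of all windows), and the ETS letters CCGGAAGT in 0 (3.42%).

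EFNA1 lies in a row with EFNA4 and EFNA3 on chromosome 1, and these neighbors differed in their change. EFNA4 (155063740 to 155069553) ends 9.28 kb before EFNA3 (155078837 to 155087538), which ends 40.3 kb before EFNA1. EFNA4 measured 305, 251 and 277 under DMSO and 389, 449 and 411 under erlotinib. It rose by 0.59 on the log2 scale (SE 0.12, limma adjusted p = 2.7e-04). EFNA3 had 111, 107 and 118 under DMSO and 115, 167 and 93.6 under erlotinib, so that its erlotinib libraries lay on both sides of the DMSO libraries, with a 95% interval of the log2 fold change from -0.31 to 0.56. Per kb, the ratio of EFNA1 to EFNA4 went from 1.41 ± 0.272 to 4.44 ± 0.174 and that of EFNA1 to EFNA3 from 5.02 ± 0.612 to 22.5 ± 6.35 (SD, n = 3 each). The RefSeq annotation holds read-through genes that overlap EFNA4 and EFNA3, which are not rows of the table, and how their reads were assigned is not given in the sources used here.

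EFNA5 and EFNA2 also rose. EFNA5, a ligand with a broad range of EPHA partners, measured 1047, 905 and 985 under DMSO and 1991, 2098 and 1941 under erlotinib. Its libraries fell into clearly separate groups, with a log2 fold change of 1.04 (SE 0.08, limma adjusted p = 3.1e-10). EFNA2 had 34.0, 9.29 and 31.0 under DMSO and 169.8, 214 and 212 under erlotinib. The DMSO values rest on 30, 10 and 29 reads, and the log2 fold change was 3.14 (SE 0.35, limma adjusted p = 7.1e-08). Over all A-type ephrins the summed level per kb was 784 ± 16.5 under DMSO and 2329.7 ± 123 under erlotinib (SD, n = 3 each), of which EFNA1 made up 39.4% ± 4.42 and 63.2% ± 1.20.

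The B-type ephrins exchanged their main member. EFNB2 (Entrez gene 1948, chromosome 13, 106489745 to 106535662) encodes ephrin-B2, the ligand of EPHB4. Its signal was 3695, 3532 and 3508 under DMSO and 1563, 1601 and 1602 under erlotinib. All erlotinib libraries were below every DMSO library, and EFNB2 fell by 1.17 on the log2 scale (SE 0.07, limma adjusted p = 3.1e-12). EFNB3 (Entrez gene 1949, chromosome 17, 7705202 to 7711372) encodes a B-type ephrin best known from the nervous system. Its signal was 43.1, 13.9 and 39.6 under DMSO and 388, 375 and 406 under erlotinib. From a low start it rose to the level of a well-detected gene, with a log2 fold change of 3.71 (SE 0.29, limma adjusted p = 3.9e-10). EFNB1 rose less, from 856 ± 93.9 to 1381 ± 61.9 (SD, n = 3 each), or 0.69 as a log2 fold change.

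Under DMSO, EFNB2 made up 72.8% ± 2.10 of the summed B-type level per kb, EFNB1 26.2% ± 1.64 and EFNB3 1.00% ± 0.471. Under erlotinib the shares were 37.1% ± 0.660, 48.7% ± 1.41 and 14.1% ± 0.788 (SD, n = 3 each). The summed level itself was 986 ± 49.9 per kb under DMSO and 857 ± 15.0 under erlotinib. This difference depended on the scaling. With libraries scaled to their totals the sums were 927 ± 31.2 and 914 ± 9.05, and the groups overlapped. Per kb, EPHB4 and EFNB2 were near parity under DMSO, with ratios of 0.942, 0.943 and 1.01, and EPHB4 was ahead under erlotinib, with 3.03, 3.09 and 3.02.

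**Figure D2:**
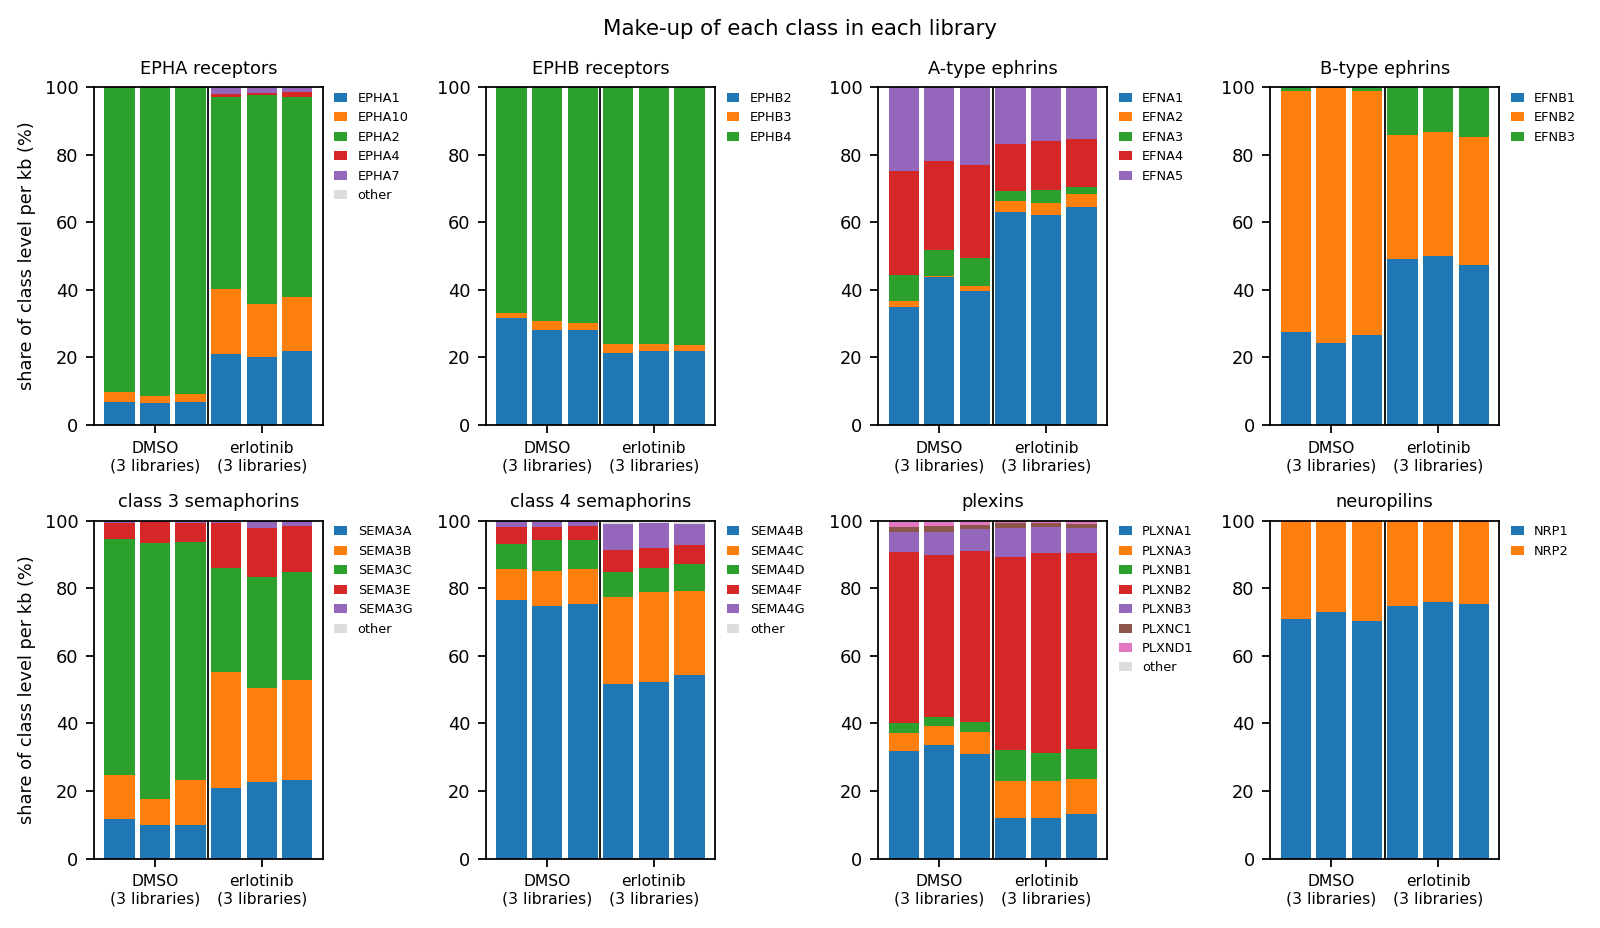
Share of each gene in the summed level of its class (y axis, percent of signal per kb) in each of the 3 DMSO and 3 erlotinib libraries, one stacked bar per library. EPHA2, EFNB2 and SEMA3C held the largest share of their classes under DMSO (90.4%, 72.8% and 72.0%) and a smaller share under erlotinib (59.3%, 37.1% and 31.8%). The semaphorins of class 5, class 6 and class 7 are not drawn. In class 6, with few reads under DMSO, the DMSO libraries differed widely, with 32.7%, 53.7% and 55.1% for SEMA6C.

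Among the semaphorins, SEMA3C, SEMA4B and SEMA7A fell. Of the 20 genes, 16 were tested, and 10 were higher, 3 lower and 3 neither, against a background of 35.3% higher and 35.4% lower. SEMA3C (Entrez gene 10512, chromosome 7, 80742538 to 80922389) encodes a secreted semaphorin that acts through neuropilins. Its signal was 2493, 2987 and 2482 under DMSO and 774, 767 and 733 under erlotinib. The erlotinib libraries were tightly grouped and far below those of DMSO, a log2 fold change of -1.80 (SE 0.08, limma adjusted p = 1.0e-13). SEMA3A, SEMA3B and SEMA3E, also secreted, rose by 0.46, 0.84 and 0.73 on the log2 scale (largest limma adjusted p = 1.9e-04). SEMA3B overlaps the antisense gene SEMA3B-AS1, whose mean signal was 0.735 under DMSO and 17.4 under erlotinib. SEMA3E and SEMA3A are neighbors on chromosome 7, with 307 kb between them.

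SEMA3G was at 15.9, 8.36 and 8.56 under DMSO and 11.1, 47.5 and 33.7 under erlotinib. One erlotinib library lay within the DMSO range, and SEMA3G, although past the threshold (log2 fold change 1.25, SE 0.53, limma adjusted p = 0.0413), was the only one of the 25 higher genes whose groups overlapped. Without the erlotinib library numbered 5 its log2 fold change was 0.83 (adjusted p = 0.248, limma), and the limma adjusted p was between 0.0818 and 0.147 without DMSO replicate 2, DMSO replicate 3 or the erlotinib library numbered 6. Its call was lost in 6 of the 13 alternatives that refitted it, among them a pseudocount of 0.1. In sum, the class 3 level per kb was 755 ± 47.9 under DMSO and 490.0 ± 24.9 under erlotinib (SD, n = 3 each).

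SEMA7A (Entrez gene 8482, chromosome 15, 74409289 to 74433958) encodes a semaphorin with a lipid anchor that binds PLXNC1 and integrins. Its signal was 1538, 1674 and 1775 under DMSO and 439, 427 and 528 under erlotinib. The groups did not overlap, and the log2 fold change was -1.84 (SE 0.10, limma adjusted p = 7.4e-13). Its receptor PLXNC1 rose, from 150.0 ± 27.0 to 225 ± 28.6 (SD, n = 3 each), or 0.59 as a log2 fold change (adjusted p = 0.0037, limma). PLXNC1 overlaps CEP83, whose mean signal was 393 under DMSO and 245 under erlotinib. Per kb, PLXNC1 was the scarcer in all libraries, with a ratio to SEMA7A of 0.0408 ± 0.00756 under DMSO and 0.220 ± 0.0295 under erlotinib.

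The class 4 semaphorins, which span the membrane, include the most abundant semaphorin, SEMA4B. It measured 4213, 3651 and 4427 under DMSO and 3227, 3277 and 3433 under erlotinib. The groups were separate by a small margin, and SEMA4B fell by 0.30 on the log2 scale (SE 0.07, limma adjusted p = 0.0011), or by 0.12 when libraries were scaled to their totals (limma adjusted p = 0.147). SEMA4C, a ligand of PLXNB2, had 488, 480.1 and 591 under DMSO and 1559, 1619.6 and 1504 under erlotinib. It was the largest contributor to the rise of class 4 per kb, from 142 to 427, with a log2 fold change of 1.59 (SE 0.09, limma adjusted p = 4.4e-12).

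SEMA4G had 118, 75.2 and 86.7 under DMSO and 572, 548 and 465 under erlotinib, a log2 fold change of 2.51 (SE 0.17, limma adjusted p = 2.4e-11). It shares its locus with MRPL43, whose mean signal was 1253 under DMSO and 1266 under erlotinib, a log2 fold change of 0.02. SEMA4A had 11.3, 19.5 and 11.8 under DMSO and 56.3, 36.6 and 51.5 under erlotinib. These are few reads, but the groups did not overlap, and the log2 fold change was 1.71 (SE 0.38, limma adjusted p = 4.7e-04). SEMA4F rose by 0.67 on the log2 scale. SEMA4D, the ligand of PLXNB1, was at 551 ± 57.5 under DMSO and 572 ± 44.6 under erlotinib (SD, n = 3 each), with a 95% interval of the log2 fold change from -0.17 to 0.28. SEMA4D overlaps SECISBP2, whose mean signal was 731 and 1239.

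In classes 5 and 6, SEMA5B and SEMA6C rose from few reads. SEMA5B (Entrez gene 54437, chromosome 3, 122909082 to 123028605), a membrane semaphorin with thrombospondin repeats, had 18, 8 and 3 reads under DMSO and 287, 216 and 227 under erlotinib. The log2 fold change was 4.66 (SE 0.41, limma adjusted p = 2.6e-09), and it ran from 3.64 with a pseudocount of 10 to 5.27 without DMSO replicate 1. Its order with EPHA7 depended on the pseudocount, since with 0.1 the value was 4.84 for SEMA5B and 5.66 for EPHA7. SEMA6C, a transmembrane semaphorin that binds plexins of the A group, measured 28.4, 39.0 and 47.1 under DMSO and 347, 329 and 305 under erlotinib. No library of one group came near the other, and the log2 fold change was 3.09 (SE 0.21, limma adjusted p = 2.8e-11). SEMA6A and SEMA6B had mean signals between 19.6 and 43.1 in either group and adjusted p-values of 0.395 and 0.223 (limma).

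**Figure D3:**
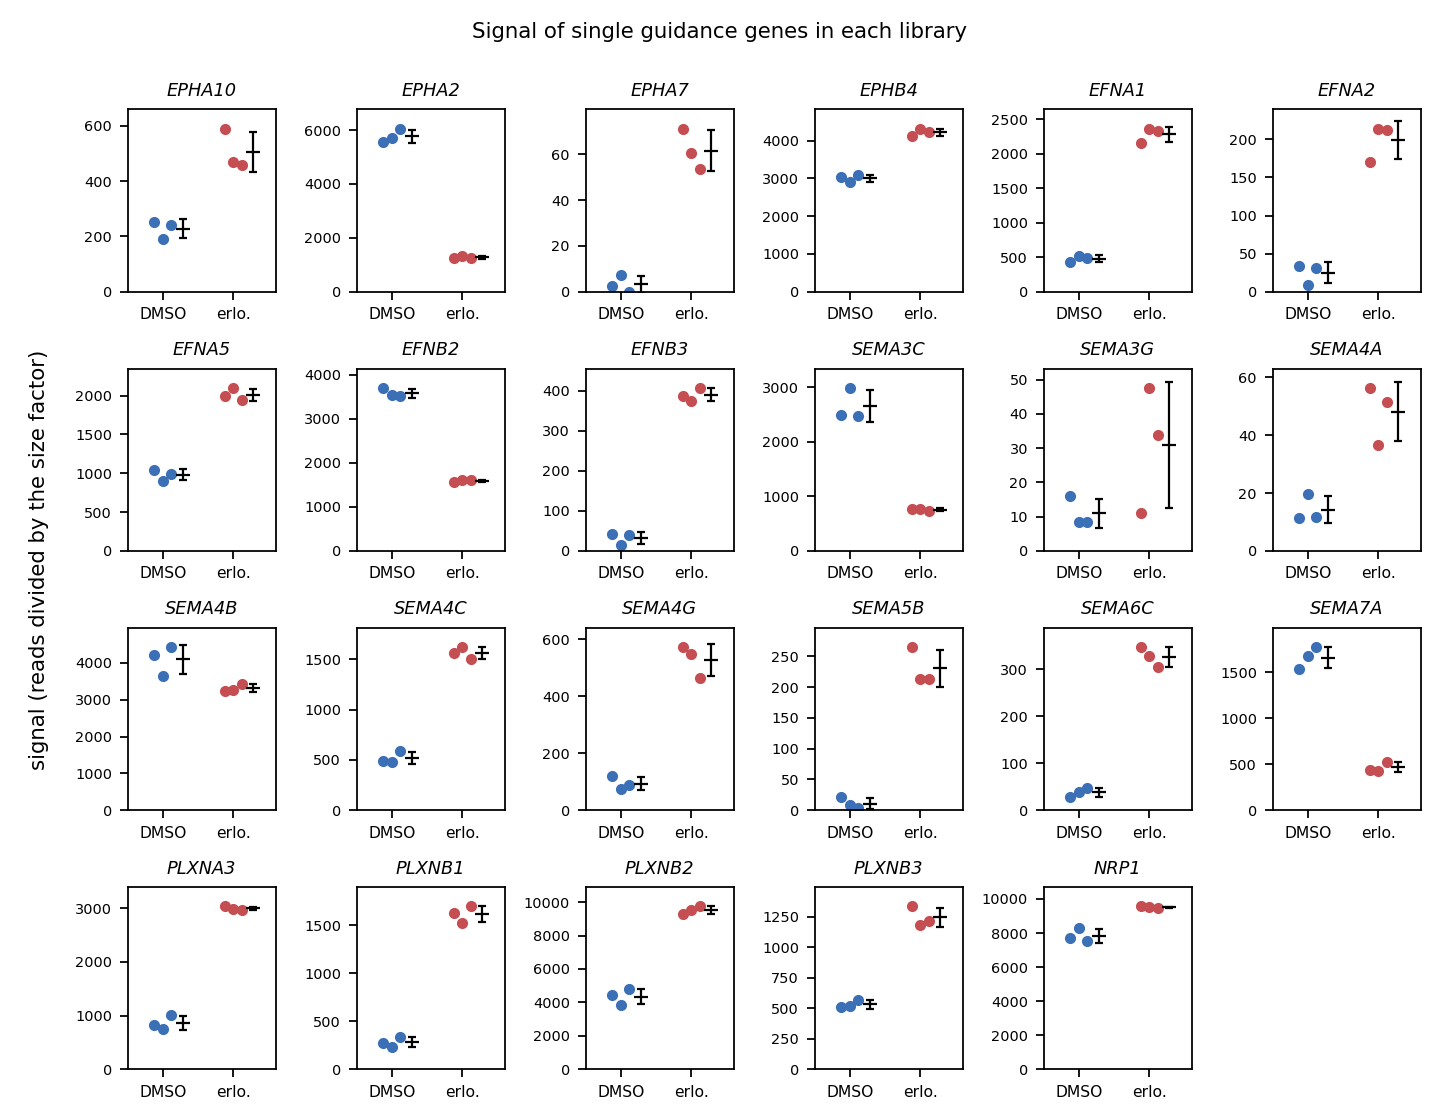
Signal (y axis, linear from 0, reads divided by the size factor) in each of the 3 DMSO (blue) and 3 erlotinib (red) libraries of the 23 genes given in full, with the mean and SD in black. The groups are separate in every panel except that of SEMA3G, and EPHA2, EFNB2, SEMA3C, SEMA4B and SEMA7A are the panels with lower erlotinib values.

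More plexins rose than fell. Of the 9 genes, 8 were tested, 5 were higher, 1 was lower and 2 were neither, where the background was 35.3% higher and 35.4% lower. The B-type plexins, receptors of class 4 semaphorins, all rose. PLXNB1 (Entrez gene 5364, chromosome 3, 48403854 to 48430310) measured 276, 231 and 337 under DMSO and 1629.7, 1522 and 1693 under erlotinib. The erlotinib mean was 5.74-fold that of DMSO, with a log2 fold change of 2.53 (SE 0.12, limma adjusted p = 7.3e-14). PLXNB2 (Entrez gene 23654, chromosome 22, 50274979 to 50307646), the most abundant plexin, had 4414, 3848 and 4783 under DMSO and 9269.7, 9531 and 9739.8 under erlotinib. Its libraries were separate by a wide margin, and PLXNB2 rose by 1.13 on the log2 scale (SE 0.07, limma adjusted p = 1.7e-11). PLXNB3 had 508, 515 and 570.5 under DMSO and 1334, 1180.0 and 1219 under erlotinib, a log2 fold change of 1.23 (SE 0.09, limma adjusted p = 1.9e-10).

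The A-type plexins, partners of neuropilins in receptors for class 3 semaphorins, were divided. PLXNA3 (Entrez gene 55558, chromosome X, 154458281 to 154477779) had 820.2, 754 and 1015 under DMSO and 3032, 2991 and 2965 under erlotinib. The groups lay far apart, with a log2 fold change of 1.81 (SE 0.09, limma adjusted p = 3.7e-13). PLXNA3 overlaps LAGE3, whose mean signal was 876 under DMSO and 639 under erlotinib. PLXNA1 was at 4062 ± 179.8 under DMSO and 2947 ± 246 under erlotinib (SD, n = 3 each) and fell by 0.47 on the log2 scale (SE 0.07, limma adjusted p = 8.2e-06). PLXNA2 had a mean signal of 50.5 and 48.4, with an interval of the log2 fold change from -0.66 to 0.51. PLXND1, a receptor of SEMA3E, had 122 and 127, with an interval from -0.35 to 0.48.

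Per kb, the share of PLXNA1 in the plexins was 32.1% ± 1.36 under DMSO and 12.4% ± 0.708 under erlotinib, while that of PLXNB2 was 49.8% ± 1.42 and 58.1% ± 0.985 (SD, n = 3 each). The summed level of the plexins was 1362 ± 114 per kb under DMSO and 2556 ± 65.5 under erlotinib. Neuropilins, which have no kinase and also bind VEGF, were the receptors with the highest summed level after the plexins under erlotinib. NRP1 measured 7694, 8298 and 7507 under DMSO and 9560.3, 9502 and 9485 under erlotinib. Although the difference was small, the groups did not overlap, and NRP1 rose by 0.28 on the log2 scale (SE 0.06, limma adjusted p = 4.3e-04). NRP2 was at 3707 ± 78.9 and 3649 ± 128 (SD, n = 3 each), with a 95% interval of the log2 fold change from -0.16 to 0.11. Scaled to the total, NRP2 passed the threshold as higher, with a log2 fold change of 0.156.

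**Figure D4:**
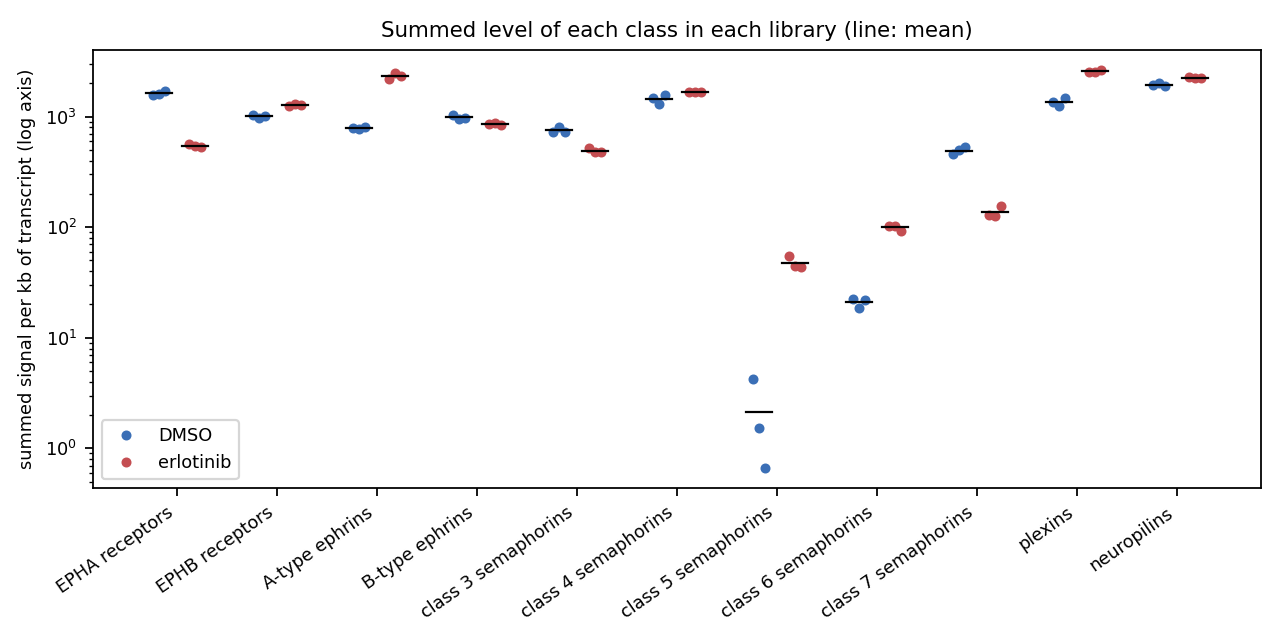
Summed level of each class (y axis, signal per kb of transcript, log axis) in the 3 DMSO (blue) and 3 erlotinib (red) libraries, with black lines at the means. EPHA receptors went from 1619 to 546 and class 7 from 492 to 138, and A-type ephrins from 784 to 2329.7 and plexins from 1362 to 2556.

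Other genes of these pathways were taken from 4 lists written from general knowledge, and about as many of them rose as fell. Of 112 genes, 83 were tested, and 33 were higher and 31 lower at the same threshold, with a median log2 fold change of 0.04. This is close to the background of 35.3% and 35.4%. When libraries were scaled to their totals, 41 were higher and 21 lower. The background moved the same way, with 6156 of all tested genes higher and 3955 lower under that scaling. Of 34 tested genes for ephrin signaling and processing, 13 were higher and 13 lower. Of 30 for plexin signaling, 9 were higher and 10 lower, and of 8 co-receptors and co-ligands of semaphorins and neuropilins, 4 were higher and 4 lower. Of 11 tested genes of the netrin, SLIT and other guidance families, 7 were higher and 4 lower.

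By the fitted log2 fold change, the largest falls in these lists were those of NTNG1, MICAL2, DPYSL3, FLRT2 and KALRN. MICAL2, an enzyme that oxidizes actin downstream of plexins, measured 3842 ± 110 under DMSO and 1430.1 ± 174 under erlotinib (SD, n = 3 each), or -1.43 as a log2 fold change. DPYSL3, a collapsin response mediator, was at 3502 ± 179 and 1461 ± 17.5, a log2 fold change of -1.26. KALRN, an exchange factor for small GTPases, fell by 1.22 on the log2 scale and FLRT2 by 1.23. NTNG1 had only 17.0, 34.4 and 4.28 under DMSO and 4.61, 7.92 and 0 under erlotinib, with overlapping groups (log2 fold change -2.02, adjusted p = 0.0469, limma). Its erlotinib mean of 4.18 was below 10, and it passed the minimum only through the DMSO libraries, where it was high.

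The largest rises were those of VAV3, RND1, NTN5, UNC5C and MRAS. RND1, a small GTPase that binds the cytoplasmic part of plexins, measured 47.6, 56.6 and 58.9 under DMSO and 375, 398 and 477 under erlotinib. It had the smallest SE of these rises, with a log2 fold change of 2.91 (SE 0.17, limma adjusted p = 3.8e-12). VAV3, an exchange factor recruited by EPH receptors, went from 9.40 ± 8.56 to 78.5 ± 4.23, and UNC5C, a netrin receptor, from 17.8 ± 7.92 to 107 ± 19.2 (SD, n = 3 each). NTN5 and MRAS had DMSO means of 10.3 and 4.63. VAV3 and MRAS had a DMSO mean below 10 and passed the minimum only through the erlotinib libraries, where they were high, so that their calls and their places among the rises rest partly on that minimum.

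The libraries held the markers of an epithelial cell. All 7 epithelial markers were detected, with a summed signal of 268207 to 301841 under DMSO and 213498 to 219269 under erlotinib. KRT7 led with a mean of 123686 under DMSO and 79897 under erlotinib, and it fell, as did KRT8, KRT18 and KRT19. CLDN4 rose from 14530 to 27577 (limma adjusted p = 4.8e-11), and EPCAM and CDH1 were neither. Of 3 lung lineage genes, NKX2-1 was at 3002 under DMSO and 8644 under erlotinib, and NAPSA at 986 and 3733. SFTPB was at only 8.23 and 10.5 and was not tested. In these bulk samples, fewer cells of a type and less RNA per cell cannot be told apart. Of 7 fibroblast markers, COL1A2, COL3A1, DCN and PDGFRA had at most 3 reads in every library, and the summed signal was 73.7, 75.2 and 109 under DMSO and 260.2, 223 and 217 under erlotinib, most of it COL1A1. Of 6 neuronal markers, SNAP25 and GAP43 had 0 reads and STMN2 at most 3, and the summed signal was 329, 336 and 293 under DMSO and 1139.7, 1136 and 1137 under erlotinib, nearly all of it SYT1. Of 6 endothelial markers, CLDN5 and EMCN had 0 reads, and the summed signal was 15.8 to 34.0 under DMSO and 42.6 to 58.1 under erlotinib. PECAM1 led this list under DMSO (mean 15.7, against 10.4 under erlotinib) and VWF under erlotinib (27.4, against 3.94 under DMSO). Of 6 leukocyte markers, LST1 had 0 reads, and CD68, which many cell types express, held most of the summed signal of 2787 to 3170.2 under DMSO and 3241 to 3536 under erlotinib. The fibroblast, neuronal, endothelial and leukocyte sums were higher in every erlotinib library, as were the guidance genes that rose (SEMA3G apart), and their part in those results was not tested.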

How the data were processed

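Per the labels, RNA of HCC827 cells was enriched with oligo(dT) beads and sequenced. By the methods and the submitters' processing notes, the authors aligned read pairs with Bowtie2 2.3.4, which does not split reads across introns, to GRCh38 and counted uniquely mapped reads with featureCounts 1.6.3. The strand setting is not given in the sources used here. The deposited values are signal, reads divided by 1 size factor per library. Dividing by the step of each library gave whole reads (within 0.1) for 100% of values. Genes whose mean signal reached 10 (14215) were tested with limma 3.58.1 with a trend, on log2(signal + 1), two-sided, with Benjamini-Hochberg adjustment. The edgeR 4.0.16 quasi-likelihood test and DESeq2 1.42.0 on the recovered reads called 10026 and 9883 genes, against 10043 with limma. On simulated data (13568 genes tested), limma recovered 83 of 96 genes changed by 1 log2 unit and 97 of 97 changed by 2.

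The members and lists were chosen with earlier results of these data known. Genes given in full are those past the threshold with a change of at least 1 log2 unit and the most abundant gene per kb of each class, and of the 4 pathway lists the 5 largest rises and 5 largest falls. Positions are from RefSeq (GRCh38.p14) and lengths from GENCODE release 44. Copies were sought by aligning transcripts to 261 alternate contigs with minimap2 2.31-r1302, at a minimum of 90% of the transcript and 97% identity. Chi-square over degrees of freedom between replicates was 4.13 to 24.3, more than sampling noise gives. The erlotinib columns are numbered 4 to 6 and were matched to the group only. Protein sequences were not analysed here. The software was R 4.3.3, Python 3.11.15 and matplotlib 3.10.9.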

Additional observations from a re-analysis of the deposited data

How the results depend on the processing

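The alternatives were edgeR, DESeq2, TMM factors, scaling to the total, no filter, at least 10 reads required per library, pseudocounts of 0.1 and 10, an adjusted p-value under 0.01 and each library left out in turn. Over all of them, 22 to 27 guidance genes were higher and 5 to 7 lower, and over the fits without 1 library 24 to 25 and 6 to 7. For the pathway lists the counts were 25 to 41 and 21 to 32. Scaling to the total shifted the median log2 fold change of all genes to 0.19 and gave 6156 higher and 3955 lower genes, against 5012 and 5031. Of the 31 guidance genes past the threshold, 29 kept their call under the 14 alternatives that refitted them (where they could be tested), the exceptions being SEMA3G and SEMA4B.

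Genes that changed sign were all among those that were neither. Scaled to the total, the log2 fold change of EPHB2 was 0.088, that of PLXNA2 0.098 and that of NRP2 0.156 (limma adjusted p = 0.0381), and the log2 ratio of the summed semaphorins was 0.028 in place of -0.15. With 1 library left out, log2 fold changes ran from -0.105 to 0.311 for EFNA3, from -0.0058 to 0.137 for SEMA4D (-0.0016 without the erlotinib library numbered 6), from -0.241 to 0.083 for PLXNA2, from -0.066 to 0.221 for PLXND1 (-0.058 without the erlotinib library numbered 6) and from -0.050 to 5.9e-04 for NRP2. Among the genes that were neither, EPHB2 passed the threshold as lower without DMSO replicate 2 (-0.149, limma adjusted p = 0.0380) and EPHB3 (0.561, limma adjusted p = 0.0267) and NRP2 as higher when scaled to the total. The cause was not tested. EPHA7, SEMA5B and SEMA3G had under 10 reads in at least 1 library, so that the read minimum removed them. No paired analysis was possible because the erlotinib columns carry no replicate number of the labels. The limits on reads cover counting error only.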
